A study of Mus musculus with 16 samples.

Results

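The genes described here are 9 genes of the red cell lineage: the globin genes Hbb-y, Hbb-bh1, Hbb-b1, Hbb-b2, Hba-x, Hba-a1 and Hba-a2, with Alas2 and Slc4a1. They were chosen by name, as the rows of these symbols in the count tables of all 16 libraries, 9 of 23337 genes. All 9 were found in every table, and 7 passed the filter on low counts described with the first test. The filter left out Hba-a1 and Hba-a2, for which values are given without a test.

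The RNA came from germs of the first molar of wild-type CD1 mice, an outbred strain, and the labels name no treatment. The libraries were labelled upper molar (8 libraries) or lower molar (8 libraries), and each label had 1 library at every 0.5 days from embryonic day ED14.5 to ED18.0. Left and right germs of 1 embryo, labelled male, went into each library, and the labels give both molars of a stage the same embryo. Stage, embryo and individual number are thus 1 factor. In the tests of single genes, p-values measure the scatter between these samples around a stage trend. Exact permutation tests between the labels hold no stage term and, apart from a sign-flip alternative, no pairing. They treat the 8 stages of a label as exchangeable replicates, which stages of a time course are not. Counts on genes ran from 33146758 to 38584429 in the upper libraries and from 35918529 to 44565205 in the lower libraries, so 10 counts at the median depth correspond to 0.269 CPM, the usual scaling of counts to a fixed library total.

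Some measurements went against the labels or followed another factor. All upper libraries ran on 1 flow cell and all lower libraries on another, so flow cell and tooth label cannot be told apart, and the first 4 stages of each label shared a lane, as did the last 4. Pou3f3, which marks the upper jaw side in mouse embryos, stood at 6.45 to 10.1 CPM in upper individuals 1, 3, 5 and 7 and 109.5 to 131.5 CPM in upper individuals 2, 4, 6 and 8, and alternated in the same way in the lower libraries (odd numbers at 4.45 to 5.46 CPM, even numbers at 60.1 to 86.2 CPM). Xist, the RNA of the inactive X chromosome, measured 1499 to 1831 CPM in the upper libraries and 431.8 to 1928 CPM in the lower libraries despite the male label, with the lowest values, 431.8 and 542.3 CPM, in lower individuals 1 and 2. For these reasons upper and lower below always mean the label of a library.

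Hemoglobin is built from alpha-like and beta-like globin chains, each with a heme group. In the mouse the first, primitive red cells arise in the yolk sac and carry the embryonic chains, beta-like from Hbb-y and Hbb-bh1 and alpha-like from Hba-x. The definitive red cells made later by the fetal liver carry the adult chains, and the replacement of the one set by the other in circulating blood is called globin switching. A molar germ is not known as a site of red cell formation, but it holds vessels, and blood comes with the dissected tissue. In bulk samples, fewer red cells and less RNA per red cell cannot be told apart.

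The globin genes lie in clusters ordered along the chromosome. By the GENCODE vM21 annotation of GRCm38 (mm10, the build of the count tables), Hbb-y lies on the minus strand of chromosome 7 from 103851749 to 103853216, and Hbb-bh1 at 103841637 to 103843164. Hba-x lies on the plus strand of chromosome 11 from 32276400 to 32278116, followed by Hba-a1 at 32283511 to 32284465 and Hba-a2 at 32296489 to 32297298. The tables also list Beta-s, an older symbol that RefSeq gives for Hbb-bs, an adult beta globin gene of the chromosome 7 cluster at 103826534 to 103828096. Mouse strains differ in their adult beta globin genes: Hbb-bs and Hbb-bt are the names used for one haplotype and Hbb-b1 and Hbb-b2 those for another. Beta-s is not among the 9 genes and was added after its values were seen, because the embryonic genes are set against it below. Alas2 lies on chromosome X from 150547375 to 150570638, and Slc4a1 on chromosome 11 from 102348824 to 102366203.

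The promoters of the embryonic and adult genes carry similar short elements, and they are shown because the levels of these genes differ so widely below. Each line gives the 120 bases just before the RefSeq transcript start on GRCm38.p6, 5′ to 3′ on the gene's strand, with 4 kinds of motif in capitals.
Hbb-y (chr7:103853208-103853327, minus strand): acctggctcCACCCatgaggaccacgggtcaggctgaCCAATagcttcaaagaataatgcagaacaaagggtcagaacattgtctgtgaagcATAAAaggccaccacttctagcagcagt
Hba-x (chr11:32276480-32276599, plus strand): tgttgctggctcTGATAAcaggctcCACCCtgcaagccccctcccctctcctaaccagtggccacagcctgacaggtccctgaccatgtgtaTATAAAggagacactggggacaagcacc
Hbb-bs, listed as Beta-s (chr7:103827929-103828048, minus strand): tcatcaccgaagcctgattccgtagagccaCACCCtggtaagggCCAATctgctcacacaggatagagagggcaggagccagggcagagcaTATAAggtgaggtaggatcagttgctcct
Hba-a1 (chr11:32283552-32283671, plus strand): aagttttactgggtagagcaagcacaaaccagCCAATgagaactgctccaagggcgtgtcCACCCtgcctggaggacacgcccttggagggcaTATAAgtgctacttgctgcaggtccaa
Alas2 (chrX:150547297-150547416, plus strand): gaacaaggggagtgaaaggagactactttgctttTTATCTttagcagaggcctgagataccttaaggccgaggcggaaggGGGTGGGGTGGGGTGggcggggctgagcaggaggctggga
The motifs searched on both strands were CACCC, the motif CCAAT, and the GATA words AGATAA with its variant AGATAG and TGATAA with its variant TGATAG. The word ATAAA and the word TATAA were searched on the gene's strand alone. In the Alas2 window GGGTG is the opposite strand of CACCC, and TTATCT that of a GATA word. Among 32851 promoter windows of this length, 31.7% held CACCC, 21.3% held CCAAT, 12.8% held a GATA word, and 16.2% held 1 of the last 2 words. The embryonic Hbb-y and the adult Hbb-bs and Hba-a1 each held the first 2 motifs and 1 of the last 2 words. In Hba-x these 2 words overlap. Among these 5 windows Hba-x and Alas2 held a GATA word, and Alas2 held CACCC 3 times on the opposite strand. The windows of Hba-a1 and Hba-a2 shared an identical run of 297 of 300 bases around the start, so 1 of them stands for both. RefSeq windows were matched for 5 of the 9 genes, without Hbb-bh1, Hbb-b1, Hbb-b2 and Slc4a1.

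The embryonic globin genes were higher in the upper libraries, Hbb-y and Hba-x at every stage and Hbb-bh1 at every stage but ED17.5, where both libraries had 0 counts. Hbb-y, the main embryonic beta-like gene, had 3232, 3653, 1153, 1213, 573, 519, 103 and 207 counts in the upper libraries from ED14.5 to ED18.0, against 29, 22, 28, 21, 10, 35, 7 and 4 counts in the lower libraries. As a level this was 3.03 to 102.2 CPM (median 22.7) in the upper libraries and 0.106 to 0.910 CPM (median 0.502) in the lower libraries. The lowest upper library, ED17.5, lay above the highest lower library, ED17.0, and the few lower counts give coarse levels. How many of all genes separate the labels in this way was not counted.

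**Figure D1:**
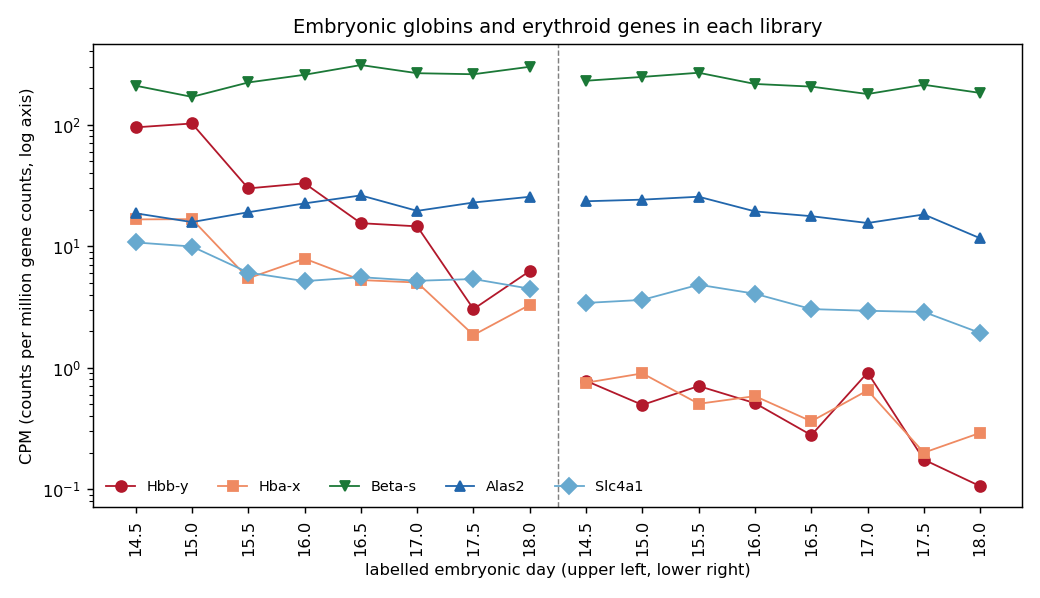
Level of Hbb-y, Hba-x, Beta-s, Alas2 and Slc4a1 in each of the 16 libraries, in CPM on a log axis, against the labelled embryonic day, with the upper libraries left of the dashed line and the lower libraries right of it. Each point is 1 library; Hbb-y and Hba-x descend across the upper libraries and lie below 1 CPM in all lower libraries, while Beta-s stays between 169.3 and 309.4 CPM throughout.

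Hba-x, the embryonic alpha-like gene, had 2208 counts over the upper libraries and 169 over the lower ones, beside 10653 and 156 for Hbb-y. It had 565, 596, 210, 291, 195, 179, 63 and 109 counts in the upper libraries from ED14.5 to ED18.0, against 28, 40, 20, 24, 13, 25, 8 and 11 counts in the lower libraries. Its groups did not overlap in CPM (1.86 to 16.7 CPM in upper and 0.200 to 0.898 CPM in lower), a trait not counted over all genes. Hbb-bh1, the second embryonic beta-like gene, had 41, 43, 16, 11, 6, 13, 0 and 4 counts in the upper libraries, against 2 counts over all 8 lower libraries, at ED15.0 and ED17.0. It was thus a minor product beside Hbb-y, at a mean of 0.0128 counts per Hbb-y count in the upper libraries.

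In the edgeR quasi-likelihood F test, Benjamini-Hochberg adjusted over 16287 genes, with a smooth curve for stage, 4 of the 7 genes tested were higher in the upper libraries and 0 lower. Of all genes tested, 18.1% were higher and 18.1% lower, 36.2% in all. Genes were tested where at least 2 libraries reached 0.269 CPM. The log2 difference, upper minus lower, was 5.93 ± 0.43 for Hbb-y (SE, adjusted p = 3.89e-07), 5.57 ± 0.69 for Hbb-bh1 (adjusted p = 3.71e-05), 3.72 ± 0.27 for Hba-x (adjusted p = 3.73e-07) and 0.95 ± 0.14 for Slc4a1 (adjusted p = 0.00013). Summed over the 8 libraries of a label, the rate of Hbb-bh1 counts was 74.0 times higher in upper than in lower, with an exact 95% interval of 20.1 to 617.4 that covers counting error only. Within the 8 labelled individuals the upper library held a median of 57.3 and up to 207.1 times the Hbb-y level of the lower library, and 7.72 to 22.1 times the Hba-x level. The 4 calls held with any 1 individual left out, with the individual as a block, and without individuals 1 and 2.

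Read in the order of the file codes, which run through the 8 upper stages and then the 8 lower stages, Hbb-y of the upper libraries and Hba-x of both labels descended in steps of 2 libraries. Hbb-y in the upper libraries of ED15.0, ED16.0, ED17.0 and ED18.0 was 0.942 to 2.06 times its level 1 stage before. It was 3.42-fold lower at ED15.5 than at ED15.0, 2.13-fold lower at ED16.5 than at ED16.0 and 4.80-fold lower at ED17.5 than at ED17.0. The upper ED18.0 library, the last of its label, lay 8.02-fold above the lower ED14.5 library, the first of its label. Hba-x had the same arrangement among the upper libraries, at 0.955 to 1.77 times within these pairs and 1.5-fold to 3.06-fold lower from one pair to the next, and it lay 4.37-fold higher in upper ED18.0 than in lower ED14.5. In the lower libraries Hba-x was 1.16 to 1.80 times within pairs and 1.61-fold to 3.25-fold lower from one pair to the next, while Hbb-y there, on 4 to 35 counts, had no such order (0.605 to 3.27 times within pairs and 0.192 to 1.43 times from one pair to the next). Pou3f3 was low in the first and high in the second library of each pair, and Hbb-y and Hba-x each shared its direction of change at 6 of 7 neighbouring steps of the upper libraries and at 3 of 7 and 7 of 7 steps of the lower libraries. The same count in the upper and lower libraries was 5 and 4 for Hbb-bh1, 1 and 5 for Hbb-b1, and 3 and 2 for Beta-s. It was 2 and 2 for Alas2 and 1 and 3 for Slc4a1. Such counts were not made over all genes. The part of the factor behind Pou3f3 in the globin levels was not tested.

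The adult globin genes named Hbb-b1, Hbb-b2, Hba-a1 and Hba-a2 carried few counts. Hbb-b1 had 19, 17, 23, 24, 38, 22, 22 and 20 counts in the upper libraries from ED14.5 to ED18.0, against 61, 82, 51, 44, 9, 23, 0 and 0 counts in the lower libraries. The lower libraries thus spanned the upper ones on both sides, and their highest values stood in individuals 1 and 2, the libraries with low Xist. Hbb-b2 had 2 to 13 counts in the upper libraries and 1 to 10 in the lower libraries. Hba-a1 had 5 counts over the 8 upper libraries and 4 over the 8 lower libraries, and Hba-a2 had 0 over the upper libraries, below a floor of 3 counts, and 22 over the lower libraries, of which 21 were in ED18.0. Neither Hbb-b1 (log2 difference 0.06 ± 0.58, adjusted p = 0.947) nor Hbb-b2 (0.68 ± 0.38, adjusted p = 0.182) passed the edgeR quasi-likelihood F test between the labels.

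Nearly all adult beta globin counts stood under Beta-s. It had 7117, 6051, 8582, 9488, 11473, 9451, 8823 and 9927 counts in the upper libraries from ED14.5 to ED18.0, against 8556, 11016, 10604, 8898, 7386, 6870, 8521 and 6900 counts in the lower libraries. Its levels overlapped between the labels, at 249.0 ± 46.7 CPM in upper and 217.5 ± 30.3 CPM in lower (SD, n = 8 each), and the log2 difference was 0.19 ± 0.12 (adjusted p = 0.228, the edgeR quasi-likelihood F test, Benjamini-Hochberg adjusted). Without individuals 1 and 2 the difference was 0.36 and Beta-s passed as higher in upper (adjusted p = 0.0372 in the same test). Of the counts on Hbb-b1, Hbb-b2 and Beta-s together, Hbb-b1 and Hbb-b2 made up 0.273% to 0.418% in the upper libraries and 0.0579% to 0.766% in the lower libraries. In the lower libraries this share was 0.572% to 0.766% in the first 4 stages and 0.0579% to 0.377% in the last 4, a different lane of the flow cell.

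Adult globin genes come in near-identical copies, which bears on how their reads could be counted. In each pair below the GENCODE vM21 coding sequences, read on the gene's strand (plus for the chromosome 11 pair, minus for the chromosome 7 pair), differ at 1 base, shown in capitals in a stretch of 51 bases, at positions 356 to 406 or 392 to 442 counted from the A of the start codon.
Hba-a1: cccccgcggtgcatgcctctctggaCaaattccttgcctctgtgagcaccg
Hba-a2: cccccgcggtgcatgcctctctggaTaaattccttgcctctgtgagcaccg
Hbb-bs: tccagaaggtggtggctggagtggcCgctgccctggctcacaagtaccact
Hbb-bt: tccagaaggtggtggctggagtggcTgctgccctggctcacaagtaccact
The difference is C381T between Hba-a1 and Hba-a2, over 429 coding bases, and C417T between Hbb-bs and Hbb-bt, over 444 coding bases. Of all 100-base windows of the transcript, the read length, 56.5% in Hba-a1, 74.5% in Hba-a2 and 62.6% in Hbb-bs occurred exactly in a transcript of another gene. No such window was found in Hbb-y, Hbb-bh1, Hba-x, Alas2 or Slc4a1. The tables also hold a line of alignments that were not unique, at 2649330 to 3445162 per library, which is assigned to no gene. The values of Hba-a1, Hba-a2 and Beta-s are therefore uncertain, and how much of the near absence of Hba-a1 and Hba-a2 this accounts for was not tested.

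Set against Beta-s, the embryonic beta-like genes ranged from a large to a very small share of the beta globin counts listed. No counts were listed for Hbb-bt. Of the read-length windows of Hbb-bs, listed as Beta-s, 62.6% also occurred in a transcript of another gene, against 0% for Hbb-y and for Hbb-bh1. Shares of the listed counts may therefore overstate the embryonic part of all beta globin RNA, by an amount that was not tested. Hbb-y and Hbb-bh1 together made up 31.4%, 37.8%, 11.9%, 11.4%, 4.79%, 5.31%, 1.15% and 2.08% of the counts on Hbb-y, Hbb-bh1, Hbb-b1, Hbb-b2 and Beta-s in the upper libraries from ED14.5 to ED18.0. In the lower libraries the share was 0.335%, 0.207%, 0.262%, 0.234%, 0.135%, 0.519%, 0.0820% and 0.0579%. The lowest upper share (95% Wilson interval 0.949% to 1.39%) lay above the highest lower share (0.375% to 0.718%), where the intervals cover counting error only. The mean was 13.2 ± 13.9% in the upper libraries and 0.229 ± 0.150% in the lower libraries (SD, n = 8 each), a difference of 13.0 percentage points (exact two-sided permutation p = 0.000155, adjusted 0.000233 over 12 tests). This p is the smallest that 8 against 8 libraries can give.

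**Figure D2:**
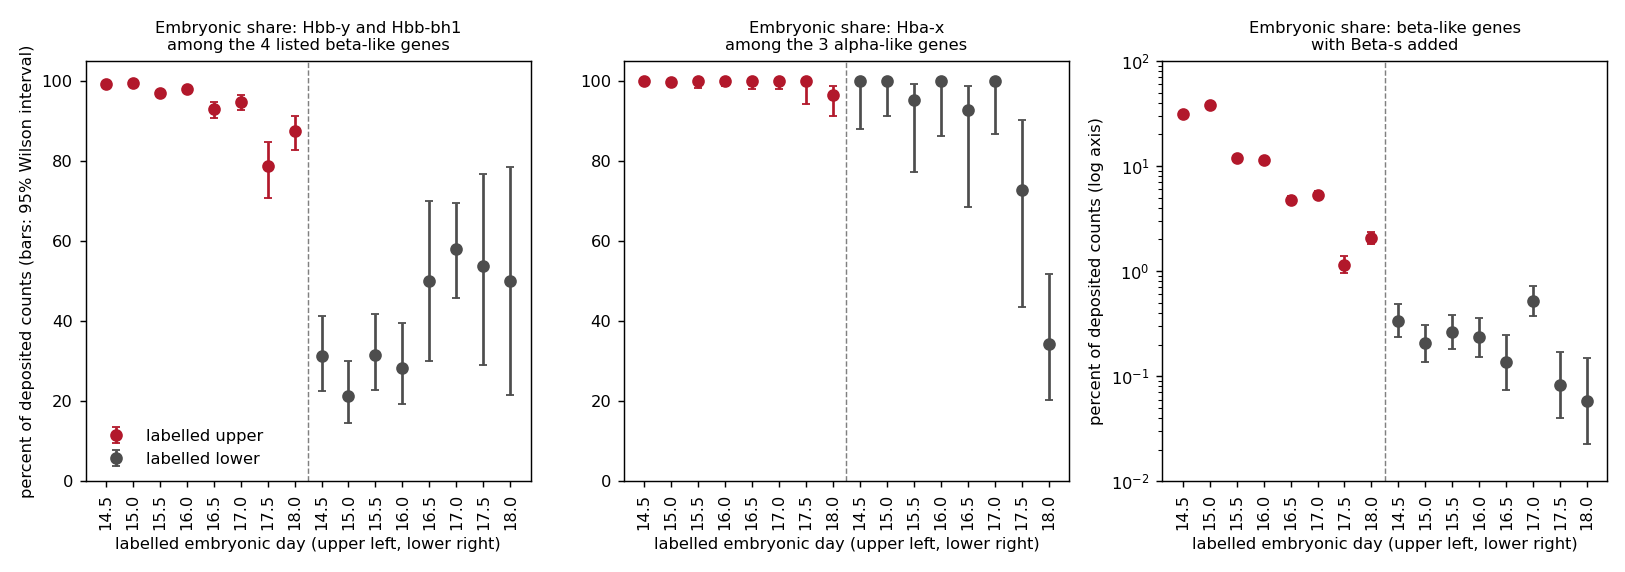
Share of embryonic globin counts in each library, in percent of deposited counts, against the labelled embryonic day, with upper libraries (red) left and lower libraries (grey) right of the dashed line; bars are 95% Wilson intervals. The left panel sets Hbb-y and Hbb-bh1 against the few Hbb-b1 and Hbb-b2 counts, the middle panel Hba-x against Hba-a1 and Hba-a2, and the right panel, on a log axis, adds Beta-s, where the share descends from 37.8% in an upper library to 0.0579% in a lower one.

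With Hbb-b1 and Hbb-b2 as the adult genes alone, the embryonic share was 93.4 ± 7.15% in the upper libraries and 40.5 ± 13.9% in the lower libraries (SD, n = 8 each). The groups did not overlap, at 78.6% to 99.4% in upper and 21.3% to 58.1% in lower (exact two-sided permutation p = 0.000155, adjusted 0.000233). These shares rest on 131 to 3719 counts in the upper libraries but on 8 to 108 in the lower libraries, of which the ED18.0 library had 4 embryonic counts of 8 (Wilson interval 21.5% to 78.5%). The share of Hba-x in alpha-like counts was 99.5 ± 1.24% in upper and 86.9 ± 23.1% in lower and did not pass (exact two-sided permutation p = 0.0769, adjusted 0.0839). As a log2 ratio of Hba-x to Hba-a1 and Hba-a2 counts, with 0.5 added to each, the difference was 4.32 (exact permutation p = 0.00124, adjusted 0.00149). Alpha-like shares thus said little beyond Hba-x itself, since Hba-a1 and Hba-a2 had 0 counts in 6 of 8 upper and 4 of 8 lower libraries.

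Over labelled stage the embryonic share fell in the upper libraries. On the log2 ratio of embryonic to adult counts with Beta-s, it fell by 1.54 per day (Pearson's r = -0.945, exact permutation p = 0.000942, adjusted 0.00337 over 4 relations; Spearman's rho = -0.929, exact permutation p = 0.00223, adjusted 0.00446; n = 8). Within the lane of the first 4 stages the slope was -1.53 and within that of the last 4 it was -1.20, and without the first and last stage r was -0.949. Exact p-values over stage, here and below, treat the 8 libraries of a label as exchangeable. The upper share moved in steps of 2 libraries instead, at 31.4% and 37.8%, 11.9% and 11.4%, 4.79% and 5.31%, and 1.15% and 2.08%. In the lower libraries the slope was -0.50 per day and did not pass (r = -0.606, exact permutation p = 0.114, adjusted 0.152; rho = -0.571, exact permutation p = 0.151, adjusted 0.151). The lane values there were -0.24 and -1.19, r was -0.253 without the first and last stage, and it ran from -0.952 to -0.381 with 1 library left out.

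Without Beta-s the lower libraries gave the opposite sign. The share against Hbb-b1 and Hbb-b2 alone fell with stage in upper (r = -0.804, exact permutation p = 0.00868, adjusted 0.0238) and rose in lower (r = 0.831, exact permutation p = 0.0186, adjusted 0.0247; rho = 0.755, adjusted p = 0.0746 by the same test; n = 8 each). Without the first and last stage r was -0.810 in upper and 0.921 in lower. In the lower libraries it was 21.3% to 31.5% in the first 4 stages and at most 58.1% in the last 4, and within those lanes its slope was 0.350 and -0.844 percentage points per day, against 9.43 over all 8 libraries. The Hba-x share fell with stage in lower (r = -0.741, exact permutation p = 0.0119, adjusted 0.0238) but did not pass by rank (rho = -0.723, exact permutation p = 0.056, adjusted 0.0746; n = 8), nor without individual 7 or without individual 8 (exact permutation p = 0.0952 for each).

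Among the single genes, 4 of the 7 tested fell with labelled stage in the upper libraries and 0 rose, where 2.42% of all genes fell and 3.73% rose (6.15% in all). The log2 slope per day was -1.33 ± 0.15 for Hbb-y (SE, adjusted p = 0.00326), -1.15 ± 0.24 for Hbb-bh1 (adjusted p = 0.0275), -0.79 ± 0.13 for Hba-x (adjusted p = 0.011) and -0.34 ± 0.07 for Slc4a1 (adjusted p = 0.0224) in the edgeR quasi-likelihood F test, Benjamini-Hochberg adjusted. Hbb-y alone kept its call with any 1 individual left out (adjusted p up to 0.0176 in the same test). Without individual 1, Hbb-bh1, Hba-x and Slc4a1 had adjusted p = 0.131, 0.0637 and 0.153 in that test, and without individual 2 or 8 Hbb-bh1 and Slc4a1 also missed the threshold. With individuals 1 and 2 both left out, or with lane as a covariate, 0 of 7 passed, with a Hbb-y slope of -1.18 and -1.23 (adjusted p = 0.126 and 0.284 in that test), and of -1.27 and -1.16 within the lanes. Without individuals 1 and 2 the slope was -0.82 for Hbb-bh1, -0.55 for Hba-x and -0.13 for Slc4a1 (adjusted p = 0.525, 0.322 and 0.558 in that test). With the lane as a covariate it was -1.31, -0.80 and -0.48 (adjusted p = 0.443, 0.375 and 0.317 in the same test).

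In the lower libraries Alas2 fell, at -0.26 ± 0.06 log2 per day (adjusted p = 0.0378, the edgeR quasi-likelihood F test, Benjamini-Hochberg adjusted), where 1.49% of all genes fell and 2.63% rose (4.11% in all). Hbb-b1, Hbb-b2, Hbb-y, Hba-x and Slc4a1 did not pass, and Hbb-bh1, with 2 counts in these libraries, was too sparse for its slope to be read. The Alas2 call was lost without individual 1, 2, 3, 4, 6 or 8 (adjusted p up to 0.161 in the same test). Hbb-b1 had a slope of -1.40 ± 0.34 (adjusted p = 0.0535), Hbb-y of -0.46 ± 0.24 (adjusted p = 0.295) and Hba-x of -0.44 ± 0.14 (adjusted p = 0.116) in that test. Without individual 6, whose lower library had the most Hbb-y counts, the slope was -0.75 for Hbb-y (adjusted p = 0.0437) and -1.80 for Hbb-b1 (adjusted p = 0.0437), and both then passed it; over all individuals left out in turn Hbb-y ran from -0.75 to -0.26. Summed with Hbb-b2, Hbb-b1 gave -1.11 ± 0.21 (adjusted p = 0.0251, the edgeR quasi-likelihood F test).

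**Figure D3:**
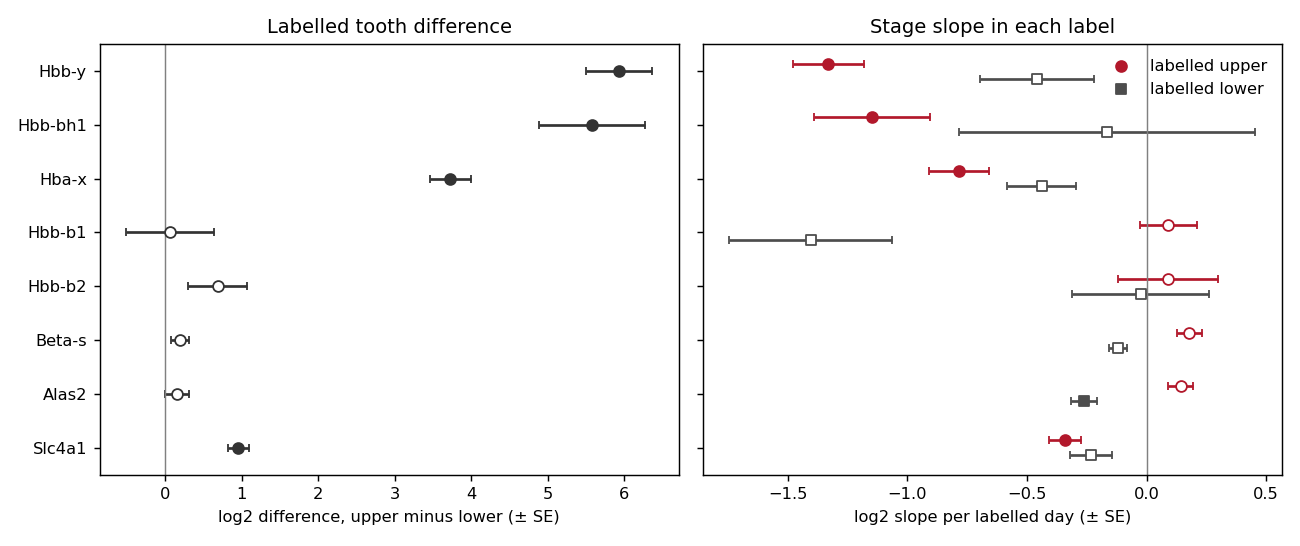
Log2 difference between upper and lower libraries (left) and log2 slope per labelled day in the upper libraries (red circles) and the lower libraries (grey squares) (right) for the 7 tested genes and Beta-s, with standard errors as bars. Filled symbols passed an adjusted p of 0.05; Hbb-y, Hbb-bh1, Hba-x and Slc4a1 lie right of 0 in the left panel, with filled red circles left of 0 in the right panel. The lower slope of Hbb-bh1 rests on 2 counts.

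The difference in slope itself, upper minus lower, passed for 2 of the 7 genes, where 0.682% of all genes passed in this direction and 0.602% in the other (1.28% in all, 209 genes, against 475 genes with the individual as a block). It was 1.66 ± 0.36 log2 per day for Hbb-b1 (adjusted p = 0.0423) and 0.41 ± 0.08 for Alas2 (adjusted p = 0.0337 by the edgeR quasi-likelihood F test, Benjamini-Hochberg adjusted). Each was lost on leaving out most single individuals, Hbb-b1 for any but individual 6 and Alas2 for any but individuals 6 and 7. The steeper fall of Hbb-y in the upper than in the lower libraries was not shown, with a difference of -0.90 ± 0.36 (adjusted p = 0.259 in the same test).

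Alas2 is the erythroid enzyme that starts heme synthesis, and Slc4a1 the band 3 anion exchanger of the red cell membrane. Both were read as measures of red cell RNA apart from the globins, but they went opposite ways in the upper libraries. Their log2 CPM had r = -0.762 over the 8 upper and 0.886 over the 8 lower libraries, given as a description. Alas2 had 634, 564, 734, 829, 970, 696, 776 and 845 counts in the upper libraries from ED14.5 to ED18.0, against 872, 1076, 1012, 795, 634, 596, 730 and 439 counts in the lower libraries. The labels overlapped, with 21.2 ± 3.60 CPM in upper and 19.4 ± 4.73 CPM in lower (SD, n = 8 each), and the log2 difference was 0.15 ± 0.15 (adjusted p = 0.468, the edgeR quasi-likelihood F test, Benjamini-Hochberg adjusted). Slc4a1 had 365, 355, 234, 190, 206, 185, 182 and 148 counts in the upper libraries, against 127, 161, 191, 167, 109, 113, 115 and 73 in the lower libraries. Its labels overlapped slightly, at 4.46 to 10.7 CPM in upper and 1.93 to 4.82 CPM in lower, and the upper ED14.5 and ED15.0 libraries stood highest, as they did for Hbb-y.

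Beta-s varied less against Alas2 than the embryonic genes did. There were 10.7 to 13.6 Beta-s counts per Alas2 count in the upper libraries and 9.81 to 15.7 in the lower libraries. The log2 ratio differed by 0.03 between the labels (exact two-sided permutation p = 0.722, adjusted 0.722 over 12 tests). In the lower libraries the ratio was lowest at ED14.5 (9.81) and highest at ED18.0 (15.7), beside 11.7 at ED17.5. Its relation with stage was not tested. Across libraries the log2 CPM of Beta-s and Alas2 rose and fell together, with r = 0.942 over the 8 upper and 0.922 over the 8 lower libraries. Beta-s and Slc4a1 had r = -0.848 over the 8 upper and 0.809 over the 8 lower libraries. These values are given as a description. Hbb-y ran from 0.133 to 6.48 counts per Alas2 count in the upper libraries and from 0.00911 to 0.0587 in the lower libraries, a log2 difference of 5.58 (exact permutation p = 0.000155, adjusted 0.000233). The same measure was 3.52 for Hba-x (exact permutation p = 0.000155, adjusted 0.000233) and 0.80 for Slc4a1 (exact permutation p = 0.000932, adjusted 0.00124).

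**Figure D4:**
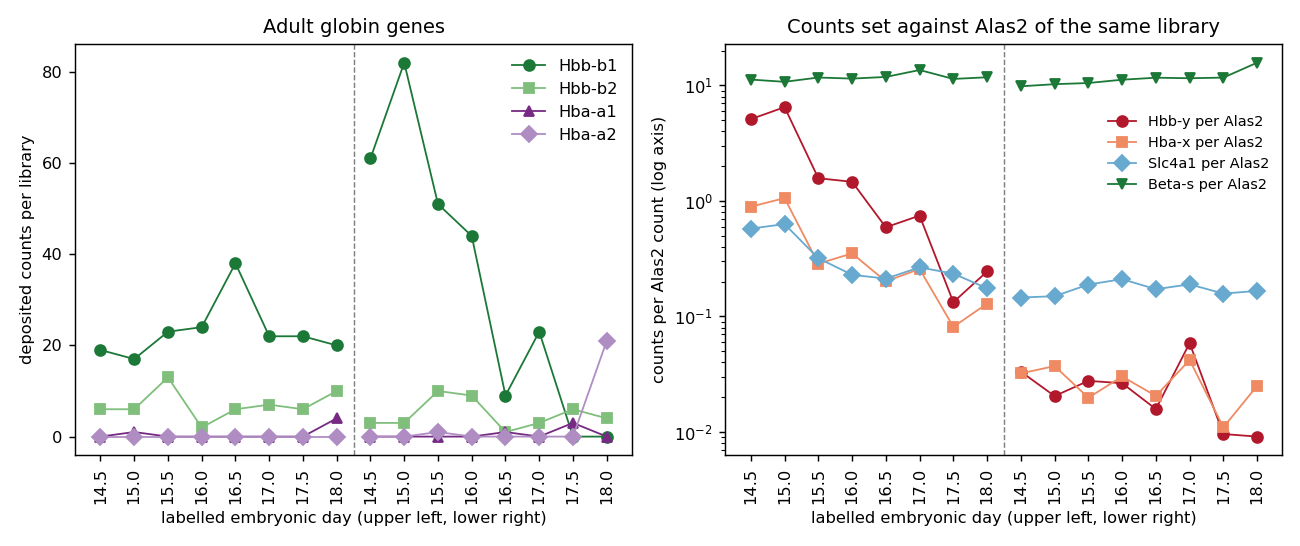
Left, deposited counts of Hbb-b1, Hbb-b2, Hba-a1 and Hba-a2 in each library against the labelled embryonic day, upper libraries left and lower libraries right of the dashed line. Right, counts of Hbb-y, Hba-x, Slc4a1 and Beta-s per Alas2 count of the same library on a log axis; Beta-s stays between 9.81 and 15.7 per Alas2 count while Hbb-y descends from 6.48 in an upper library to 0.00911 in a lower one.

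The embryonic genes differed between the labels to unequal extents. Hbb-y per Hba-x count was 1.63 to 6.13 in the upper libraries and 0.364 to 1.40 in the lower libraries, with means of 3.86 ± 1.77 in upper and 0.909 ± 0.368 in lower (SD, n = 8 each), a log2 difference of 2.05 (exact permutation p = 0.000155, adjusted 0.000233). In the upper libraries the ratio was 5.72 at ED14.5 and 6.13 at ED15.0, but 1.63 at ED17.5 and 1.90 at ED18.0, not far above the highest lower value. Its relation with stage was not tested. In the lower libraries Hbb-y and Hba-x were about equal in counts on average. Neither transcript shares a 100-base window with another gene, and both are counted over similar lengths of 633 and 801 bases.

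Other genes of the red cell lineage differed less between the labels than the 3 embryonic globins. Of 11 tested erythroid transcription factors, 4 were higher in upper and 1 lower, where 18.1% of all genes were higher and 18.1% lower (36.2% in all), and the median log2 difference was 0.18 against 0.01 over all genes. Ldb1, a cofactor of the globin enhancers, differed by 0.18 ± 0.03 and Klf3, a repressor, by -0.66 ± 0.05. Bach1 (-0.03 ± 0.03, adjusted p = 0.427) and Nfe2l2 (-0.17 ± 0.07, adjusted p = 0.0841) did not pass the edgeR quasi-likelihood F test. The other 3 called were Nfe2, a factor of the globin locus (1.10 ± 0.17), Klf1, the activator of adult beta globin (0.54 ± 0.19), and Lmo2, a bridging cofactor (0.22 ± 0.06), named after their values were seen. Gata1, the master factor of red cells, had 5.5 counts per library on average and differed by 1.19 ± 0.51 (adjusted p = 0.0864 by the edgeR quasi-likelihood F test).

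Of 13 regulators known to act in globin switching, 4 were higher in upper and 3 lower, against 18.1% of all genes in each direction. Chd4, Dnmt1, Kdm1a and Bcl11a, parts or partners of the repressor complexes of embryonic globin genes, differed by -0.02 to 0.03 and did not pass (adjusted p = 0.504 to 0.922, the edgeR quasi-likelihood F test). Igf2bp1, Lin28b, Sox6 and Igf2bp3 were higher (1.05 ± 0.08, 1.65 ± 0.23, 0.77 ± 0.13 and 0.33 ± 0.04), and Myb, Mbd2 and Zbtb7a lower (-1.81 ± 0.21, -0.30 ± 0.07 and -0.26 ± 0.05), again named after their values were seen. Igf2bp1, an RNA-binding protein of fetal tissue, fell with stage in upper (-0.26 per day, adjusted p = 0.00205) and lower (-0.25 per day, adjusted p = 0.0451, the edgeR quasi-likelihood F test). These genes are active in many tissues, and these counts do not say in which cells of the germ.

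Of 18 genes of heme synthesis and iron handling, 3 were higher in upper and 3 lower, with none of the 4 best counted, Ftl1, Fth1, Slc25a39 and Tfrc, among them (-0.29 to 0.03). Of 17 tested genes of the red cell membrane and its skeleton, 6 were higher and 3 lower, with Epb41 (listed as Epb4.1) at 0.11 ± 0.04, Sptb (listed as Spnb1) at -1.14 ± 0.17, Aqp1 at -0.80 ± 0.09 and Gypc at 0.22 ± 0.09 (adjusted p = 0.0677, the edgeR quasi-likelihood F test). Kel and Epb42 (listed as Epb4.2), blood group and membrane skeleton genes named after their values were seen, differed by 1.24 ± 0.22 and 1.59 ± 0.28. Of 15 tested red cell enzymes and maturation genes, 2 were higher and 3 lower, with Prdx2 at -0.19 ± 0.04, Bnip3l at 0.13 ± 0.03, and Xpo7 and Ube2o at -0.02 and 0.03. Of all genes 36.2% were called, 18.1% in each direction, and the median log2 difference was -0.02, 0.22 and -0.01 in these lists. Over labelled stage, 6.15% of all genes passed in upper and 4.11% in lower. At most 2 genes of each of the 5 lists passed in any 1 label.

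Markers of other cells that blood or the germ could bring were given the same test, in which 18.1% of all genes were higher in upper and 18.1% lower. Of 12 macrophage markers 0 were higher in upper and 7 lower. The 4 best counted were Csf1r at -0.84 ± 0.16, Cd68 at -0.60 ± 0.10, Lyz2 at -0.69 ± 0.18 and Mrc1 at 0.29 ± 0.17. Of these Mrc1 did not pass. The summed level of the 12 markers was 75.8 to 119.1 CPM in upper and 80.2 to 171.2 CPM in lower. Of 10 endothelial markers 1 was higher and 4 lower, with sums of 454.7 to 530.9 CPM in upper and 491.6 to 556.1 CPM in lower. Cdh5, a junction protein of the vessel lining, differed by 0.01 ± 0.05 (adjusted p = 0.914, the edgeR quasi-likelihood F test). The next best counted were Kdr (-0.24 ± 0.04) and Pecam1 (-0.15 ± 0.05), both lower in upper, and Tie1 (0.03 ± 0.06), which did not pass. Of 7 tested platelet markers 2 were higher and 0 lower (sums of 14.4 to 16.7 CPM in upper and 11.2 to 15.4 CPM in lower), and of 5 tested neutrophil, mast cell and lymphoid markers 0 were higher and 2 lower (sums of 1.57 to 5.25 CPM in upper and 3.25 to 9.45 CPM in lower). Of 8 dental epithelium markers 1 was higher and 4 lower, and of 8 dental mesenchyme markers 5 were higher and 1 lower. None of the markers was at 0 in all libraries of a label, and the epithelial Krt5 (1940.5 CPM in upper and 2045 CPM in lower on average) and the mesenchymal Vim (764.9 CPM in upper and 593.5 CPM in lower) were abundant in both. The part of these cell types in the globin differences was not tested.

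The genes whose log2 CPM was most like the summed embryonic globins over the 16 libraries, among 12472 others with a mean count of at least 50, were Gabra4 (r = 0.978), Gria4 (r = 0.971), Rspo3 (r = 0.971), Prrx1 (r = 0.971) and Hs6st2 (r = 0.964). Gabra4 measured 12.6 to 29.4 CPM in the upper libraries and 3.75 to 8.30 CPM in the lower libraries. All libraries share the flow cell and stage structure described above, so these values describe likeness of course and nothing more. Slc4a1 had r = 0.898, Alas2 0.165 and Beta-s 0.144 with the same sum. Most like the summed Hbb-b1, Hbb-b2, Hba-a1 and Hba-a2 counts were Tmem132c (r = 0.926), Tdh (r = 0.815), Zmym4 (r = 0.797), Cdk6 (r = 0.796) and Smad2 (r = 0.792).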

How the data were processed

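Poly(A) RNA of 16 first molar germ libraries was sequenced as 100-base read pairs with a kit that does not mark strand, per the labels' protocols. The authors deposited whole-number counts per gene symbol, not normalized. Bowtie2 2.0.2, TopHat2 2.0.6, HTSeq 0.5.3p9 and mm10 are named in the submitters' processing notes; the sources used here do not give the annotation or the strand setting. Each table held 5 summary lines, kept out of library sizes and tests; 12.6% to 15.1% of reads fell on no feature and 0.955% to 1.14% were ambiguous. Hbb-bh2 had 0 counts; Hbb-bt is not in the tables.

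The 9 genes and all lists were chosen with earlier results of these data known. Counts were tested with edgeR 4.0.16 (R 4.3.3; TMM, quasi-likelihood F test, Benjamini-Hochberg adjustment over all genes tested, threshold 0.05), the tooth difference and the slope difference over 16 libraries with a natural spline of stage of 3 degrees of freedom, and slopes over the 8 libraries of a label. A standard error is the log2 value divided by the square root of F. DESeq2 1.42.0 was an alternative. Shares and ratios (0.5 added on log scales) were tested with exact permutation tests (SciPy 1.17.1). The steps were tested on simulated data. Log2 CPM used a prior count of 2. Named genes were the 9, up to 4 best counted genes of each list, and the 5 most like each globin sum; exceptions are stated.

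The labels give both teeth of a stage the same embryo, so the individual number was used as the block in the alternatives. Same-numbered libraries deviated together from the mean of their label (r = 0.121 to 0.279 in 8 pairs). Stage was not removed from these deviations, and libraries of unlike numbers were not compared. This r therefore cannot tell a shared embryo from a shared stage. Xist was at 1664 and 1739 CPM in upper individuals 1 and 2, against 431.8 and 542.3 CPM in lower. In the other individuals it was 1499 to 1831 CPM in upper and 1610 to 1928 CPM in lower. The embryonic beta share with Beta-s was 31.4% and 37.8% in upper individuals 1 and 2, against 0.335% and 0.207% in lower. Whether libraries of the same number share an embryo was not tested. Of 120 pairs of libraries, 0 had identical counts. Motifs and sequences were read from RefSeq promoters of GRCm38.p6 and GENCODE vM21 transcripts.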

Additional observations from a re-analysis of the deposited data

Results flagged for a closer look

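Of 26 groups of 8 libraries examined for a library far from the rest, 6 had one. Chance gives about 1 in 20 for normal, independent values, a rate that does not hold here: Hba-a1 and Hba-a2 had 0 counts in 6 of 8 libraries in the groups named, and the alpha-like shares reuse the same counts. Hbb-b1 stood apart in the upper ED16.5 library at 1.02 CPM, with 0.651 CPM in the nearest other upper library. Hba-a1 stood apart at 0.121 CPM in upper ED18.0 and at 0.0750 CPM in lower ED17.5, which are 4 and 3 counts. Hba-a2 stood apart at 0.555 CPM in lower ED18.0, which is 21 counts against at most 1 in any other library. The Hba-x share of alpha-like counts was lowest in the ED18.0 libraries, at 96.5% in upper ED18.0 and 34.4% in lower ED18.0, against 99.8% and 72.7% in the nearest others.

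The slope per labelled day differed between the labels for 2 genes in the edgeR quasi-likelihood F test, Benjamini-Hochberg adjusted. It was 1.66 log2 higher in upper than in lower for Hbb-b1 (adjusted p = 0.0423; 0.019 to 0.192 with 1 individual left out) and 0.41 higher for Alas2 (adjusted p = 0.0337; 0.0306 to 0.223 with 1 individual left out).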

How the results depend on the processing

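The 4 tooth calls held in all settings run: TMM or DESeq2 size factors, the library total without globins, no filter, DESeq2's Wald test, linear stage, copies summed, without individuals 1 and 2, and each individual left out (4 to 4 calls; 4847 to 5534 genes in all). The replicate block by individual gave 4 calls too and changed no call of the 9 genes, with an exact sign-flip p of 0.00781 for the beta share and 0.125 for the alpha share; it raised the genes with a slope difference to 475, against 209. Stage results were less stable. Calls among the 9 genes ran from 1 to 4 in upper, 0 to 2 in lower and 0 to 2 for the slope difference with 1 individual left out (192 to 1401, 34 to 758 and 14 to 136 genes in all). Lane as a covariate gave 0 and 0 calls (2 and 19 genes in all), and leaving out individuals 1 and 2, chosen after seeing the data, 0 in each of the 3 (18, 1 and 0 genes in all). DESeq2 called 2051, 1784 and 599 genes, against 1002, 670 and 209, with 2 of the 9 genes in lower, as did no filter.

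Values that had passed no test changed sign in places. Hbb-b1 ran from -0.28 to 0.40 in the tooth difference with 1 individual left out, and its upper slope was -0.15 with lane, -0.051 without individuals 1 and 2 and -0.47 in lane 2. The Hbb-b2 upper slope was -0.33 in lane 1 (-0.073 to 0.21 with 1 left out), its lower slope 1.13 with lane, 1.20 in lane 2 and 1.04 in lane 3 (-0.17 to 0.12), and its slope difference ran from -0.080 to 0.23. The Beta-s upper slope was -0.040 in lane 2, the Slc4a1 lower slope 0.24 in lane 2 and its slope difference 0.33 without individuals 1 and 2 (-0.22 to 0.053). The Hbb-bh1 lower slope, 0.30 without individuals 1 and 2 (-0.71 to 0.38), rests on 1 or 2 counts, and gives no direction.

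For shares, the beta difference was 49.3 to 56.9 percentage points with 1 individual left out. In lower, the relation of the beta share with stage had r = -0.369 in percent and -0.606 in log2 once Beta-s was added, and 0.823 without individuals 7 and 8 (0.795 to 0.86 with 1 left out); these 3 were chosen after seeing the data. Its slope in lane 3 was -0.844 points per day. The upper relation ran from -0.919 to -0.775. The alpha share difference became 4.32 on the log2 scale. Its relation with stage in upper was -0.836 on the log2 scale, 0.393 without individuals 7 and 8, with a slope of 0.0335 in lane 1 (-0.692 to 0.408), and in lower -0.282 without individuals 7 and 8 (-0.846 to -0.651). The cause was not tested. Beta shares per transcript length were not run, since Hbb-b1 and Hbb-b2 have no length in the annotation used. Few counts limit the lower embryonic and all Hba-a1 and Hba-a2 values.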

Other observations

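Other globin genes of the tables lay outside the comparisons above. Cygb, a globin of fibroblasts and other stromal cells, was at 25.9 ± 8.26 CPM in the upper libraries and 29.3 ± 4.58 CPM in the lower libraries (SD, n = 8 each). It rose with labelled stage in upper by 0.35 log2 per day (adjusted p = 0.0136), its lower slope was -0.08 (adjusted p = 0.434), and the slope difference passed (adjusted p = 0.0172, the edgeR quasi-likelihood F test, Benjamini-Hochberg adjusted). Ngb, the neuronal globin, averaged 0.420 and 0.554 CPM in upper and lower, and Mb, the muscle globin, 0.252 and 0.130 CPM. The theta-like genes Hbq1a and Hbq1b had 10 and 27 counts over the 8 upper libraries, against 2 and 18 over the 8 lower libraries.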
